A study of Pelodiscus sinensis with 18 samples.

Results

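The genes described here are enzymes that oxidize, reduce or conjugate small molecules. They were measured in the soft-shelled turtle Pelodiscus sinensis, in its liver and its gut. They were taken by symbol: every feature of the expression table whose symbol starts as that of a cytochrome P450 (CYP), a UDP-glucuronosyltransferase (UGT), a sulfotransferase (SULT), a glutathione S-transferase (GST or MGST), a flavin monooxygenase (FMO), an aldehyde dehydrogenase (ALDH), an aldo-keto reductase (AKR) or an epoxide hydrolase (EPHX), apart from CYP7A1, CYP8B1 and CYP27A1. This rule found 28 of 24880 features. They were 13 aldehyde dehydrogenases, 5 glutathione S-transferases, 3 microsomal glutathione S-transferases, 3 epoxide hydrolases, 2 aldo-keto reductases, 1 sulfotransferase and 1 cytochrome P450, and the UGT and FMO patterns matched no symbol. The single cytochrome P450, CYP2J19, was listed at 0 in all 18 libraries, so the group is in these data one of aldehyde dehydrogenases, glutathione transferases and their partners rather than of cytochrome P450s. RNA came from turtles described as wild type, exposed to niclosamide, an anthelmintic that also serves as a molluscicide, at 10 µg per L (called nic10) or 50 µg per L (nic50), or from an unexposed control group. Liver and gut of each of these 3 groups gave 3 libraries, 18 in all. The labels give no age, sex or length of exposure, nor whether replicate libraries were made from different turtles, so p-values measure the spread between libraries, which may be technical.

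Foreign compounds and many of the body's own metabolites are cleared in steps. Oxidases such as cytochrome P450s introduce a reactive group, aldehyde dehydrogenases and aldo-keto reductases dispose of the aldehydes that arise, epoxide hydrolases open epoxides with water, and transferases attach glutathione, sulfate or glucuronic acid. Many aldehyde dehydrogenases and some glutathione transferases also have fixed places in intermediary metabolism: the breakdown of amino acids, the making of retinoic acid and the turnover of leukotrienes. Liver is the main site of this clearance in vertebrates, and the gut lining meets ingested compounds first.

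Values are FPKM, fragments scaled by transcript length and by library total, which can be compared between genes because they are scaled by length. The members together made up 0.225% to 0.348% of the summed FPKM of a library. Markers fitted the tissue labels: 11 hepatocyte genes summed to 74997 to 100423 FPKM in liver libraries, and 12 enterocyte genes to 349 to 9845 in gut libraries against 46.8 to 109.7 in liver. The hepatocyte list, which holds the apolipoproteins APOA1 and APOB that enterocytes also make, summed to 1131 to 18177 in gut. Libraries stood apart within groups. Control liver 1 differed from control livers 2 and 3, and livers 2 and 3 are among 5 libraries (with control guts 1 and 2 and nic50 gut 3) that hold a set of 23 genes at an FPKM of at least 1 which are almost absent (at most 0.1 of that level) in the other 13 libraries. Among the 25 members tested in liver, control 1 lay over 0.5 log2 units above the mean of the other controls for 7 (28%) and as far below it for 2 (8%), against 6.89% and 34.9% of all 10892 genes tested. The 3 nic50 livers were nearly alike, with correlations of 0.99 to 0.993 across genes. The median coefficient of variation of members was 16.3% in control, 22.1% in nic10 and 6.7% in nic50 livers. Over all genes it was 23.9%, 26% and 11.1%. The liver fits pooled the spread of each gene over the 3 groups. Standard errors of nic50 against control therefore include the wider spread of nic10 livers, and those of nic10 against control the narrower spread of nic50 livers. Nic10 guts 1 and 3 held less of the enterocyte markers than nic10 gut 2.

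In unexposed turtles most of these enzymes differed between the tissues. Of 25 members tested, 21 (84%) passed an adjusted p of 0.05 (limma, Benjamini-Hochberg over all genes), 12 higher and 9 lower in liver than in gut, where 64.1% of all genes passed, 12.6% higher and 51.5% lower. Groups did not overlap for 21 members, against 70% of all genes. The median log2 difference over members was 0.39, against -0.58 over all genes tested. Rescaling by trimmed means moved the median of all genes by 0.54 and gave 13 members higher and 6 lower. Of all 13475 genes tested, 3281 were then higher and 3539 lower. Quantile normalization moved the median by 0.50 and gave 11 members higher and 8 lower, and 2991 of all genes higher and 3860 lower. Fewer cells of a type and less RNA per cell cannot be told apart in such bulk samples.

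The steepest liver preference belonged to AKR1D1, the 5-beta-reductase of steroid hormones and of bile acid precursors, with 75.4, 46.9 and 44.0 FPKM in control livers and 0.135, 0 and 0.147 in control guts. Its log2 difference was 5.65 (SE 0.18, adjusted p = 1.07e-13). GSTZ1, a zeta-class transferase that acts as maleylacetoacetate isomerase in tyrosine breakdown, had 95.9, 35.3 and 29.7 FPKM in control livers and 1.5, 0.676 and 2.04 in control guts, a difference of 4.35 (SE 0.34, adjusted p = 1.74e-08). ALDH4A1, which completes proline breakdown, had 60.5, 25.8 and 30.3 FPKM in control livers and 1.76, 1.94 and 1.72 in control guts, a difference of 3.73 (SE 0.23, adjusted p = 7.16e-10). ALDH8A1, of tryptophan breakdown, averaged 14 ± 5.82 FPKM in control livers and 2.31 ± 0.488 in control guts (SD, n = 3 each), a difference of 2.13. ALDH7A1, of lysine breakdown, averaged 86.0 ± 5.66 in liver and 36.4 ± 2.48 in gut, a difference of 1.22. For all of these the lowest liver control lay above the highest gut control. ALDH2, the mitochondrial enzyme that oxidizes acetaldehyde, averaged 101 ± 50.4 FPKM in liver and 29.8 ± 16 in gut, a log2 difference of 1.74 (SE 0.32, adjusted p = 0.000194). ALDH1A1, which makes retinoic acid from retinal, averaged 48.2 ± 7.86 in liver and 13.2 ± 8.82 in gut, a log2 difference of 1.96 (SE 0.47, adjusted p = 0.00172). GSTK1, the kappa-class transferase of mitochondria and peroxisomes, averaged 147 ± 8.30 in liver and 40.9 ± 3.22 in gut, a difference of 1.82. Smaller liver preferences were found for MGST2, of leukotriene C4 synthesis (0.93), and for ALDH5A1, the succinic semialdehyde dehydrogenase (0.89). MGST1, a membrane-bound transferase (0.58), and ALDH3A2, the fatty aldehyde dehydrogenase (0.48, adjusted p = 0.0457), also passed. Of 18 fits that each left out 1 library, MGST1 passed in 16 and failed without control liver 1 or control gut 2 (adjusted p = 0.0607 and 0.0675), and ALDH3A2 passed in 8, with adjusted p of up to 0.158, and did not pass after quantile normalization (0.46, adjusted p = 0.135).

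Of the 9 members lower in liver, 6 had a log2 difference below -1. GSTO1, an omega-class transferase, had 7.98, 13.9 and 10.0 FPKM in control livers and 549, 713 and 179.7 in control guts. Its log2 difference of -5.18 (SE 0.48, adjusted p = 1.36e-07) was the lowest of the members, although gut control 3 was far under the other guts. ALDH1A3, another maker of retinoic acid, averaged 0.436 ± 0.0649 FPKM in liver and 11.8 ± 1.95 in gut, a difference of -3.15. Its paralog ALDH1A1 had the opposite tissue preference, and the remaining member of this class, ALDH1A2, stayed under 1 FPKM in all 18 libraries and was not tested. ALDH1L2, the mitochondrial 10-formyltetrahydrofolate dehydrogenase of one-carbon metabolism, averaged 0.925 ± 0.321 in liver and 10.2 ± 3.57 in gut, a difference of -2.50. GSTP1, the pi-class transferase, averaged 71.7 ± 14.1 in liver and 229 ± 16.7 in gut, a difference of -1.68 (SE 0.20, adjusted p = 3.4e-06). AKR1A1, an NADPH-dependent aldehyde reductase, averaged 13.9 ± 0.422 in liver and 40.2 ± 3.98 in gut, a difference of -1.47 (SE 0.23, adjusted p = 4.32e-05). ALDH18A1, which makes proline, was also lower in liver (-1.22), opposite to the proline-degrading ALDH4A1. MGST3, a membrane-bound transferase (-0.87), and EPHX1, the microsomal epoxide hydrolase (-0.86), were lower in liver too, but after rescaling by trimmed means their differences were -0.14 and -0.15 and did not pass. GSTCD, which carries a transferase-like domain, was lower in liver (-0.40), and its sign turned under that rescaling (0.03) and under quantile normalization (0.19). It passed in 14 of 18 fits leaving out a library and not without control liver 1 or 3 or control gut 2 or 3 (adjusted p = 0.0578 to 0.0872). ALDH6A1, ALDH9A1, SULT4A1 and EPHX2 did not pass, with log2 differences of 0.39, -0.50, -0.28 and -0.37.

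**Figure D1:**
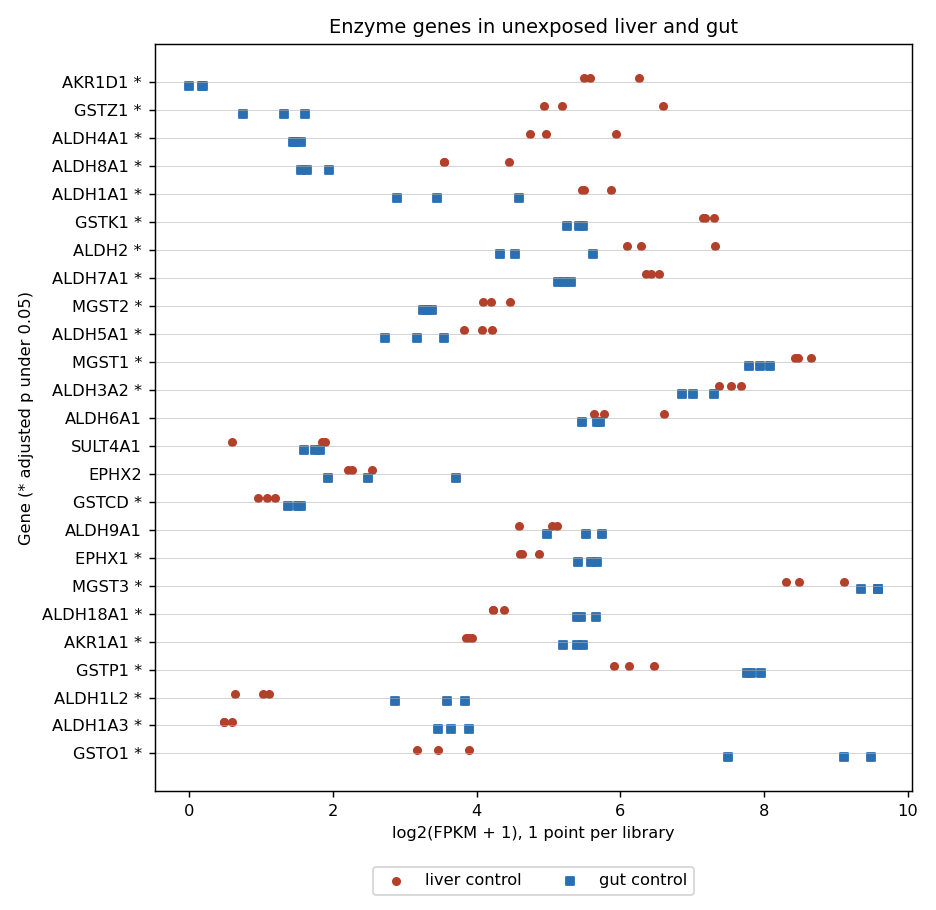
Levels of the 25 tested enzyme genes in the control libraries, on a log2(FPKM + 1) axis, with 1 circle for each liver and 1 square for each gut. Genes run from the highest liver-minus-gut difference (AKR1D1, 5.65) to the lowest (GSTO1, -5.18), and an asterisk marks the 21 genes that passed an adjusted p of 0.05.

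By level, the membrane-bound transferase MGST3 had the highest mean in both tissues. MGST3 averaged 409 ± 127 FPKM in control livers and 728 ± 65.2 in control guts, and MGST1 averaged 366 ± 31.0 in livers and 244 ± 24.9 in guts (SD, n = 3 each). In liver they were followed by ALDH3A2 (185 ± 19.6), GSTK1 (147 ± 8.30), ALDH2 (101 ± 50.4), ALDH7A1 (86.0 ± 5.66), GSTP1 (71.7 ± 14.1) and ALDH6A1 (66.5 ± 26.3), the methylmalonate semialdehyde dehydrogenase of valine and pyrimidine breakdown. MGST3 and MGST1 overlapped in control livers, ALDH2 overlapped GSTK1, and ALDH2, ALDH7A1, GSTP1 and ALDH6A1 overlapped each other, so the order within these sets is not fixed by these libraries. In gut GSTO1 stood between MGST3 and MGST1, and then came GSTP1 (229 ± 16.7), ALDH3A2 (133 ± 21.4), ALDH6A1 (48.3 ± 4.54), EPHX1 (46.4 ± 4.39) and ALDH18A1 (44.4 ± 4.36). The last 3 overlapped each other, as did MGST1 and GSTP1, and GSTO1, with its wide range, overlapped MGST3, MGST1 and GSTP1. As a class, the 13 aldehyde dehydrogenases summed to 531 to 846 FPKM in liver libraries and 322 to 488 in gut libraries. The 5 soluble glutathione S-transferases summed to 244 to 348 in liver and 441 to 978 in gut.

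Of the 25 members tested in liver, 1 passed by limma's adjusted p in nic50 against control livers, and it was AKR1D1, while 4.71% of all genes tested passed. AKR1D1 had 75.4, 46.9 and 44.0 FPKM in control livers, 83.4, 78.0 and 85.6 in nic10 and 26.5, 25.7 and 24.4 in nic50 livers. Every nic50 liver lay below every control, and every nic10 liver lay above every control. It averaged 25.6 ± 1.03 FPKM in nic50 and 55.4 ± 17.4 in control livers (SD, n = 3 each), a log2 difference of -1.05 (SE 0.21, adjusted p = 0.0207). Against nic10 livers, which averaged 82.3 ± 3.87, the nic50 difference was -1.65 (SE 0.21, adjusted p = 0.00293). In nic10 against control livers it was 0.60 (SE 0.21, adjusted p = 0.224), and 0.84 (adjusted p = 0.013) without control liver 1. The call against controls was lost when any nic50 liver was left out (adjusted p = 0.0804 to 0.114) and held in the other 6 such fits, while the call against nic10 held in 9 of 9. Counting the nearly identical nic50 livers as 1 value and control livers 2 and 3 as 1 value left log2 differences of -1.17 against control and -1.65 against nic10. That fit holds a lone nic50 value without a spread of its own, so it cannot decide whether these calls hold. With a term for the 23-gene set the difference from control was -1.53. In liver only control livers 2 and 3 carry that set, so this value compares the nic50 livers with control liver 1 alone. AKR1D1 was at most 0.195 FPKM in gut, where it was not tested within the tissue.

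The calls across the whole liver table give the background for this count. In nic50 against control livers, 513 of 10892 genes passed, and 1.02% of all genes passed as lower, against 1 of 25 members (4%). Groups did not overlap for 8 members (32%) and for 35.6% of all genes, and the median log2 difference was 0.12 over members and 0.13 over all genes tested. In nic50 against nic10 livers 2.53% of genes passed and again 1 of 25 members, with no overlap for 7 members (28%) and 28.7% of genes. In nic10 against control livers 1.07% of genes passed and 0 of 25 members by limma, 5 of them (20%) at an unadjusted p under 0.05 against 13.5% of genes, and groups did not overlap for 8 members (32%) and 13.8% of genes. The median there was 0.16 over members and 0.04 over all genes. Rescaling by trimmed means moved the median of all genes by -0.15 in nic50 against control livers and by -0.05 in nic10 against control livers, and left the members' calls as they were. Matrix markers moved with dose in the same libraries: 9 genes of fibroblasts and stellate cells summed to 10.8, 15.7 and 15 FPKM in control livers, 31.9, 31.8 and 20.5 in nic10 and 35.0, 41.0 and 55.0 in nic50 livers. None of the 9 was at 0 throughout. Of 7 tested, 4 were higher in nic50 than in control livers, and 0 passed in nic10 against control or nic50 against nic10 livers. Lymphocyte markers summed to 4.1 to 9.21 in control, 6.46 to 7.93 in nic10 and 10.2 to 22.5 in nic50 livers. Endothelial markers summed to 8.93 to 74.7 in control, 32.3 to 75 in nic10 and 12.9 to 24.1 in nic50 livers. Of these 2 lists 0 genes passed in any liver comparison. Hepatocyte markers summed to 82188 to 88819 in nic50 and 74997 to 86588 in control livers. Of 11 tested, 1 was higher in nic50 than in control livers, where 3.69% of all genes were higher. Macrophage markers summed to 113 to 135 in control, 95.1 to 156 in nic10 and 107 to 122 in nic50 livers. Of 4 tested, 1 was higher in nic10 than in control livers and 1 lower in nic50 than in nic10 livers. The part of these shifts in the enzyme values was not tested.

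**Figure D2:**
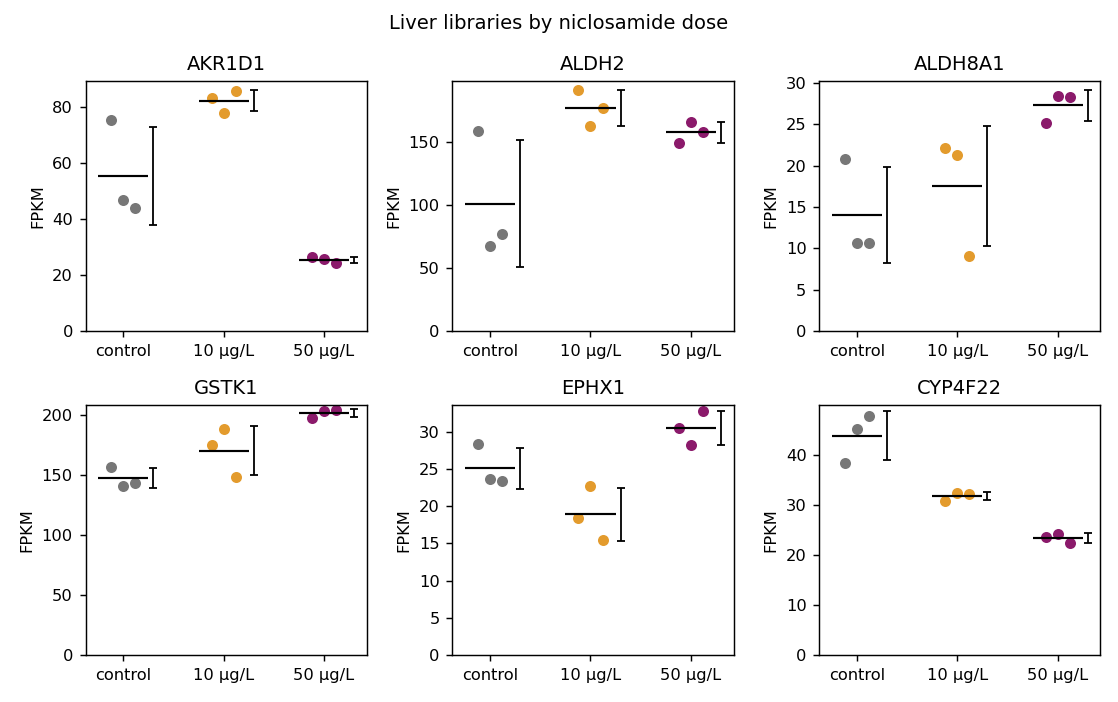
FPKM of 5 enzyme genes and of CYP4F22 in the 9 liver libraries by niclosamide dose, with 1 point a library, a line at the group mean and a bar of 1 SD. AKR1D1 lies at 24.4 to 26.5 in nic50 livers, below all control and nic10 livers, and a single high control liver widens the control bars of AKR1D1, ALDH2 and ALDH8A1.

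Among the aldehyde dehydrogenases, ALDH2 gave the largest nic10 difference of the members without passing. ALDH2 had 159, 67.3 and 76.9 FPKM in control livers, 191, 163 and 177 in nic10 and 149, 166 and 158 in nic50 livers. Controls 2 and 3 lay under all exposed livers, and control 1 lay at the level of the exposed ones. The log2 difference was 0.91 (SE 0.28, adjusted p = 0.172) in nic10 against control and 0.74 (SE 0.28, adjusted p = 0.164) in nic50 against control. Without control liver 1 these were 1.29 (adjusted p = 0.00465) and 1.12 (adjusted p = 0.00576), and with a term for the 23-gene set they were 0.15 and -0.01. Control livers 2 and 3 carry that set and no exposed liver does, so in liver the set and the difference of these controls from exposed livers cannot be told apart. Values against control with the term therefore compare exposed livers with control liver 1 alone. ALDH8A1 had 20.8, 10.7 and 10.7 FPKM in control livers, 22.2, 21.3 and 9.13 in nic10 and 25.1, 28.4 and 28.3 in nic50 livers. Its nic50 livers lay above all controls, and nic10 liver 3 lay below them. The log2 differences were 0.97 (SE 0.33, adjusted p = 0.130) in nic50 and 0.27 in nic10 against control. ALDH7A1 had 92.0, 85.2 and 80.7 FPKM in control livers, 118, 105 and 153 in nic10 and 127, 112 and 114 in nic50 livers. All 6 exposed livers were above the controls, with log2 differences of 0.52 (SE 0.18, adjusted p = 0.231) for nic10 and 0.45 (SE 0.18, adjusted p = 0.194) for nic50. After rescaling by trimmed means these were 0.45 and 0.26. In a fit of only the groups compared the adjusted p was 0.568 for nic10 and 0.0510 for nic50. ALDH1A3, near the floor of detection in liver, averaged 1.24 ± 0.139 FPKM in nic10 and 0.436 ± 0.0649 in control livers, a difference of 0.64 (SE 0.21, adjusted p = 0.204). No control liver reached 1 FPKM, so ALDH1A3 entered the liver fit only through exposed livers, and its upward difference is no independent support. ALDH4A1 averaged 35.7 ± 2.39 in nic50 and 52.4 ± 5.18 in nic10 livers without overlap, a difference of -0.54 (SE 0.27, adjusted p = 0.319), and against control it was 0.52 for nic10 (0.88, adjusted p = 0.0182, without control liver 1) and -0.02 for nic50. Of the others, ALDH9A1, which serves carnitine synthesis, and ALDH3A2 had nic50 livers above all controls, with log2 differences of 0.49 and 0.31 that did not pass. For ALDH3A2 the nic10 livers lay above all controls too, at 241 ± 31.7 FPKM against 228 ± 10.3 in nic50 livers. The remaining 5 tested aldehyde dehydrogenases, ALDH18A1, ALDH1A1, ALDH1L2, ALDH5A1 and ALDH6A1, lay between -0.29 and 0.23 for nic50, and none passed. The nic10 livers of ALDH1A1 lay below all controls, at 40.8 ± 2.30 FPKM against 48.2 ± 7.86, and did not pass.

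Of the glutathione transferases, GSTK1 had 156, 141 and 143 FPKM in control livers, 175, 188 and 148 in nic10 and 197, 203 and 204 in nic50 livers. Nic50 livers exceeded all others, and nic10 liver 3 lay among the controls, with differences of 0.45 (SE 0.16, adjusted p = 0.148) for nic50 and 0.20 (SE 0.16, adjusted p = 0.660) for nic10 against control. The GSTK1 difference for nic50 was 0.26 (adjusted p = 0.513) after rescaling by trimmed means and 0.34 after quantile normalization. In a fit of only the groups compared its adjusted p was 0.0377. MGST2 had 21.0, 17.3 and 16 FPKM in control livers, 31.3, 22.2 and 22.8 in nic10 and 23.7, 23.4 and 21.3 in nic50 livers. All exposed livers were above all controls, with differences of 0.46 (SE 0.19, adjusted p = 0.310) for nic10 and 0.32 (SE 0.19, adjusted p = 0.367) for nic50. GSTP1 averaged 71.4 ± 10.6 FPKM in nic50 and 51.8 ± 11.4 in nic10 livers, a difference of 0.47 (SE 0.22, adjusted p = 0.278), and the nic50 livers differed from control by 0.00 (95% interval -0.48 to 0.48). GSTZ1 followed the split of the controls, with 95.9, 35.3 and 29.7 FPKM in control livers, 81.1, 59.1 and 43.5 in nic10 and 50.4, 57.1 and 47.4 in nic50 livers. MGST3, with MGST1 the most abundant member, had a nic50 difference of -0.11 (95% interval -0.68 to 0.46), and MGST1 one of 0.13 (-0.38 to 0.65). GSTO1 and GSTCD gave -0.04 and 0.12, and none of the 8 transferase genes of these families passed in any liver comparison.

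EPHX1, which opens epoxides on the endoplasmic reticulum, had 28.3, 23.7 and 23.3 FPKM in control livers, 18.5, 22.7 and 15.5 in nic10 and 30.5, 28.2 and 32.8 in nic50 livers. Nic10 livers lay below all controls and all nic50 livers. The log2 difference was 0.68 (SE 0.18, adjusted p = 0.0790) for nic50 against nic10, -0.40 (SE 0.18, adjusted p = 0.369) for nic10 against control and 0.27 (SE 0.18, adjusted p = 0.446) for nic50 against control. The first of these passed in 2 of 9 fits that left out a library (adjusted p = 0.0486 without nic10 liver 1 and 0.0414 without control liver 1). EPHX2, the soluble epoxide hydrolase, differed from control by -0.22 in nic10 and -0.08 in nic50 livers, and EPHX4 was at 0 in all 9 livers. AKR1A1 held a narrow range in control and nic50 livers and a wider one in nic10 livers. It had 13.9, 14.3 and 13.5 FPKM in control livers, 18.3, 13.4 and 11.4 in nic10 and 15.4, 14.5 and 15 in nic50 livers. The nic50 livers lay above all controls. The nic50 difference of AKR1A1 was 0.10 (95% interval -0.31 to 0.51), an interval that includes the wider spread of the nic10 livers. SULT4A1, a sulfotransferase relative best known from brain, had 0.507, 2.59 and 2.71 FPKM in control livers, 0.759, 1.62 and 2.34 in nic10 and 1.05, 0.923 and 1.02 in nic50 livers, so that the control spread covered all exposed values.

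**Figure D3:**
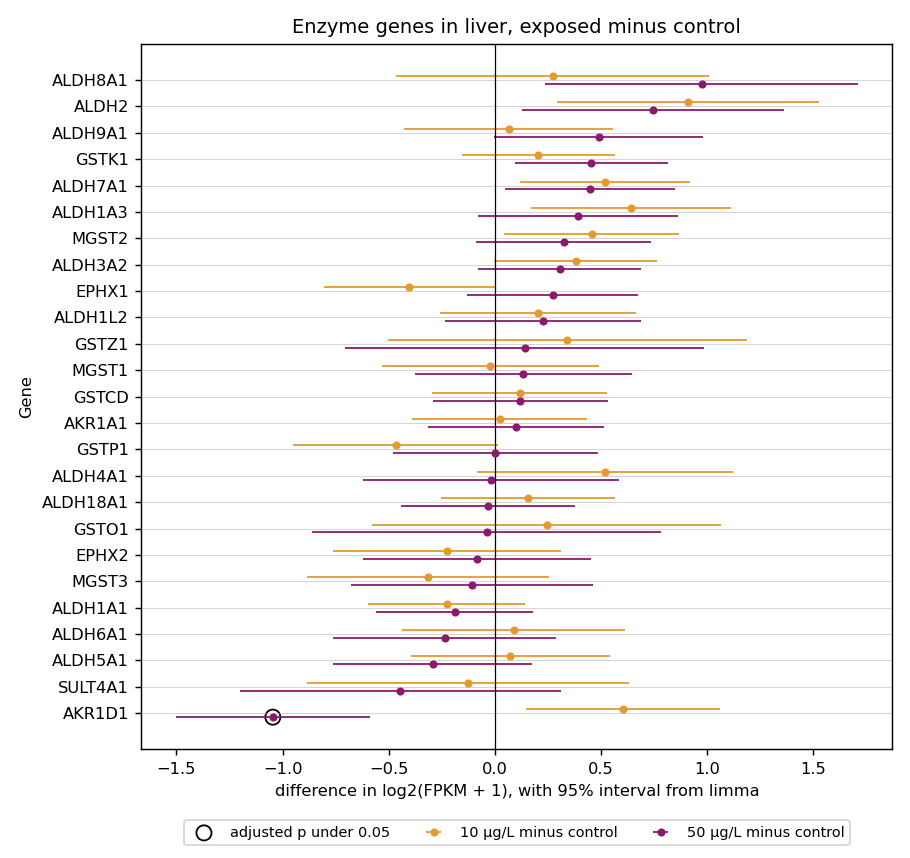
Differences from control in log2(FPKM + 1) for the 25 enzyme genes tested in liver, with 95% intervals from limma, at 10 µg per L and 50 µg per L. The only difference past an adjusted p of 0.05 is the circled one of AKR1D1 at 50 µg per L (-1.05), and its 10 µg per L point (0.60) lies on the other side of 0.

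In gut 0 of 24 tested members passed in any exposure comparison by limma. For nic10 against control guts, 0.174% of 12617 genes passed, 7 members had an unadjusted p under 0.05 (29.2%, against 14.9% of all genes), and groups did not overlap for 9 members (37.5%), against 22% of all genes. For nic50 against control guts, 0.0238% of genes passed, 2 members had an unadjusted p under 0.05 (8.33%, against 6.5% of genes), and groups did not overlap for 4 members (16.7%), against 11.8% of genes. For nic50 against nic10 guts, 0.119% of genes passed, 7 members had an unadjusted p under 0.05 (29.2%, against 14.2% of genes), and groups did not overlap for 8 members (33.3%), against 19.1% of genes. Rescaling by trimmed means moved the median of all genes by -0.13 in nic10 against control guts and by 0.15 in nic50 against nic10 guts. The median log2 difference of members was -0.06 for nic10 and -0.03 for nic50 against control, and that of all genes 0.11 and -0.02. Enterocyte markers summed to 3863, 3433 and 2858 FPKM in control, 349, 3761 and 1562 in nic10 and 3512, 9845 and 2268 in nic50 guts, with all 12 listed genes found, none at 0 throughout and 0 of 12 past the threshold in nic10 or nic50 against control. Smooth muscle markers, 5 of 7 listed, summed to 329 to 528 in control, 403 to 807 in nic10 and 304 to 1636 in nic50 guts. Endothelial markers, 6 of 6 listed, summed to 28.0, 27.7 and 25.5 in control, 53.0, 38.3 and 48.8 in nic10 and 19.9, 8.67 and 20.03 in nic50 guts, so that the groups did not overlap. Of 5 tested, 0 passed at either dose against control and 1 was lower in nic50 than in nic10 guts. Of the hepatocyte list 2 of 8 tested were lower at each dose against control, and its sums were 9296 to 15924 in control, 1131 to 8373 in nic10 and 8449 to 18177 in nic50 guts. The part of this in the values below was not tested.

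The widest gut difference was in EPHX2. EPHX2 had 2.81, 4.59 and 12.1 FPKM in control guts, 0.0870, 1.66 and 0.263 in nic10 and 13.5, 1.69 and 2.43 in nic50 guts. Nic10 guts lay below all controls, and nic10 guts 1 and 3, the libraries lowest in enterocyte markers, were lowest. Nic50 gut 2, with the highest marker sum (9845), had an EPHX2 of 1.69 FPKM. Control gut 3, with the lowest marker sum of the controls (2858), had the highest EPHX2 of the controls. The relation of EPHX2 to these markers was not tested. The differences were -2.09 (SE 0.68, adjusted p = 0.246) for nic10 against control and 1.73 (SE 0.68, adjusted p = 0.308) for nic50 against nic10, with nic50 gut 1 far above the other nic50 guts. With nic10 gut 2 as the only nic10 library the nic10 difference was -1.30, a value from 1 library that carries no spread of its own. GSTP1 had 248, 225 and 216 FPKM in control guts, 143, 167 and 159.8 in nic10 and 259.7, 364 and 222 in nic50 guts. Its nic10 guts lay below all others, with differences of -0.55 (SE 0.19, adjusted p = 0.256) for nic10 against control and 0.81 (SE 0.19, adjusted p = 0.144) for nic50 against nic10. MGST3 was likewise lowest in nic10 guts, with 765, 653 and 766 FPKM in control guts, 496, 584 and 507 in nic10 and 744, 635 and 767 in nic50 guts and differences of -0.46 (SE 0.15, adjusted p = 0.239) for nic10 against control and 0.43 (SE 0.15, adjusted p = 0.270) for nic50 against nic10. MGST1 averaged 290.3 ± 43.5 FPKM in nic50 and 194 ± 25.7 in nic10 guts, a difference of 0.58 (SE 0.17, adjusted p = 0.214). MGST2 had 8.93, 8.57 and 9.43 FPKM in control guts, 3.81, 6.03 and 4.22 in nic10 and 6.75, 10.8 and 3.56 in nic50 guts, a nic10 difference of -0.83 (SE 0.31, adjusted p = 0.283). For these 4 transferases no nic10 gut reached the lowest control.

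GSTK1 ran the other way, with 43.5, 37.3 and 42.0 FPKM in control guts, 60.7, 57.0 and 53.7 in nic10 and 47.9, 54.4 and 51.5 in nic50 guts. All 6 exposed guts were above all controls, with differences of 0.47 (SE 0.13, adjusted p = 0.202) for nic10 and 0.32 (SE 0.13, adjusted p = 0.729) for nic50 against control. ALDH4A1, a low gene in gut, had 1.76, 1.94 and 1.72 FPKM in control guts, 3.45, 2.60 and 3.11 in nic10 and 2.67, 1.97 and 2.38 in nic50 guts. Its exposed guts also lay above all controls, with differences of 0.52 (SE 0.16, adjusted p = 0.239) for nic10 and 0.24 (SE 0.16, adjusted p = 0.880) for nic50. GSTZ1 averaged 2.48 ± 0.552 FPKM in nic50 and 1.41 ± 0.688 in control guts, a difference of 0.56 (SE 0.24, adjusted p = 0.740). ALDH5A1 averaged 7.58 ± 3.08 in nic50 and 12.9 ± 1.15 in nic10 guts, a difference of -0.75 (SE 0.29, adjusted p = 0.298). AKR1A1 averaged 23.5 ± 4.07 in nic10 and 40.2 ± 3.98 in control guts without overlap, a difference of -0.76 (SE 0.26, adjusted p = 0.259). In nic50 guts it averaged 30.0 ± 12.3, a difference from control of -0.48 (SE 0.26, adjusted p = 0.833). ALDH1A3 averaged 8.56 ± 4.75 in nic50 and 11.8 ± 1.95 in control guts, a difference of -0.52 (SE 0.30, adjusted p = 0.854), and the groups overlapped. EPHX1 had 47.3, 50.2 and 41.6 FPKM in control guts, 39.8, 47.1 and 45.1 in nic10 and 44.6, 40.4 and 39.6 in nic50 guts and 95% intervals of -0.38 to 0.23 for nic10 and -0.46 to 0.15 for nic50 against control. GSTO1, after MGST3 the most abundant member in gut, ranged from 179.7 to 713 FPKM over the 9 guts, and its nic50 difference of -0.73 had a 95% interval of -1.88 to 0.42. ALDH1A1 had 9.97, 6.41 and 23.1 FPKM in control guts, 7.73, 45.1 and 10.7 in nic10 and 15.5, 15.9 and 19.9 in nic50 guts, and 1 library, nic10 gut 2, held the highest value by far.

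**Figure D4:**
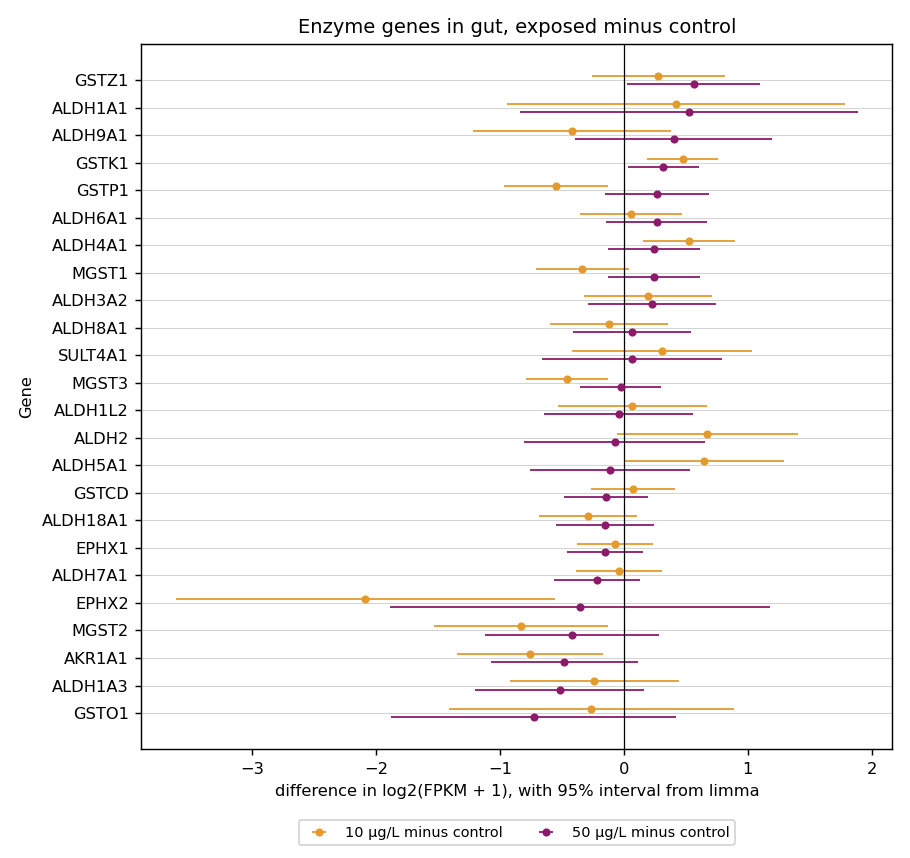
Differences from control in log2(FPKM + 1) for the 24 enzyme genes tested in gut, with 95% intervals from limma, at 10 µg per L and 50 µg per L. No difference passed an adjusted p of 0.05, and EPHX2 at 10 µg per L (-2.09) lies farthest from 0.

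**Figure D5:**
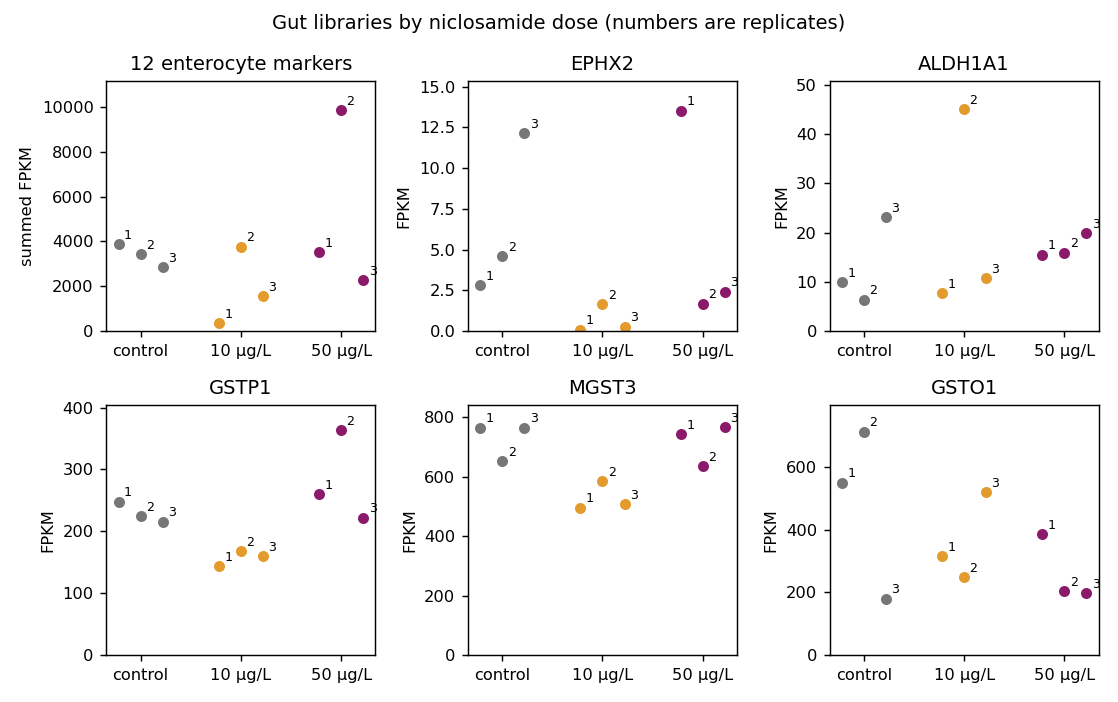
Summed FPKM of 12 enterocyte markers and FPKM of 5 enzyme genes in the 9 gut libraries by niclosamide dose, with 1 point and replicate number a library. Nic10 guts 1 and 3 are low for the markers and for EPHX2, while nic50 gut 2 is highest for the markers with EPHX2 at 1.69. For GSTP1 and MGST3 all 3 nic10 guts lie under the control guts.

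Whether liver and gut responded differently was tested as the liver change minus the gut change at each dose. For nic10, 0.364% of 13475 genes passed and 0 of 25 members by limma, 6 of them (24%) at an unadjusted p under 0.05 against 9.83% of genes. For nic50, 0.987% of genes passed and 0 of 25 members, 4 of them (16%) at an unadjusted p under 0.05 against 12.4% of genes. At 50 µg per L the smallest p belonged to AKR1D1, with -1.01 (SE 0.25, adjusted p = 0.0741), a gene with almost no transcript in gut, so that this is in effect its liver change. ALDH7A1 gave 0.66 (SE 0.22, adjusted p = 0.194) and ALDH1A3 0.91 (SE 0.38, adjusted p = 0.336) at the same dose. At 10 µg per L, MGST2, with its exposed livers above and its nic10 guts below their controls, gave 1.29 (SE 0.37, adjusted p = 0.194). AKR1D1 gave 0.65 (SE 0.25, adjusted p = 0.389), or 0.89 with an adjusted p of 0.0263 without control liver 1, and ALDH7A1 gave 0.56 (SE 0.22, adjusted p = 0.416). GSTK1, with exposed libraries above most or all controls in both tissues, gave -0.27 (95% interval -0.65 to 0.11) for nic10 and 0.13 (-0.25 to 0.52) for nic50.

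Further enzymes of these families carry only a number in the table and were named through RefSeq. They are 23 genes outside the group defined by symbol: 18 cytochrome P450s and 1 each of ALDH16A1, AKR7A2, EPHX3, SULT6B1 and UGT3A2. Of the cytochrome P450s, 7 stayed under 1 FPKM in all 18 libraries, and CYP1B1 (LOC102451045), which oxidizes polycyclic hydrocarbons and steroids, reached at most 1.10 FPKM and was not tested. CYP1A, CYP3A and UGT1A genes are not analysed here. In nic50 against control livers 1 of 12 tested (8.33%) passed, as lower, where 4.71% of all genes passed and 1.02% passed as lower, and in the other exposure comparisons of either tissue 0 of 12 did. CYP4F22 (LOC102458909), a fatty acid hydroxylase in mammals, had 38.3, 45.2 and 47.7 FPKM in control livers, 30.7, 32.3 and 32.1 in nic10 and 23.6, 24.1 and 22.3 in nic50 livers. The groups did not overlap and lay in order of dose, with differences of -0.87 (SE 0.16, adjusted p = 0.0132) for nic50 and -0.45 (SE 0.16, adjusted p = 0.232) for nic10 against control. The nic50 call held in 4 of 9 fits that left out a library, with adjusted p of 0.00545 to 0.0913 over all 9. It was lost without any nic50 liver and without control liver 2 or 3. With alike livers averaged, which leaves a lone nic50 value, the nic50 difference was -0.83. In gut CYP4F22 had 27.2, 23 and 18.9 FPKM in control guts, 12.2, 19.96 and 27.2 in nic10 and 21.1, 27.6 and 31.7 in nic50 guts. CYP17A1 (LOC102457785), the steroid 17-alpha-hydroxylase, had 1.57, 19.9 and 24.4 FPKM in control livers, 1.86, 0.739 and 0.445 in nic10 and 0.527, 1.14 and 1.14 in nic50 livers. Control livers 2 and 3 alone were high. The limma differences were -2.52 (SE 0.69, adjusted p = 0.127) for nic10 and -2.54 (SE 0.69, adjusted p = 0.0655) for nic50. Without control liver 1 they were -3.58 and -3.59 (adjusted p = 0.000936 and 0.000827). With a term for the 23-gene set, which leaves control liver 1 alone as the control, the nic50 difference was -0.42. Between control tissues 5 of 14 tested were higher in liver, as were 12.6% of all genes. They were CYP17A1 (3.46), the lanosterol demethylase CYP51A1 (LOC102445540, 1.77), CYP4V2 (LOC102455815, 1.52), the oxysterol hydroxylase CYP7B1 (LOC102462148, 1.15) and CYP4F22 (0.91). The 3 lower in liver, where 51.5% of all genes were lower, were CYP24A1 (LOC102458142), which inactivates vitamin D (-1.99), ALDH16A1 (LOC102446982, -1.60) and EPHX3 (LOC106731288, -0.79), which did not pass after rescaling by trimmed means (-0.27) or quantile normalization (-0.15).

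Genes that regulate or supply these enzymes were read from a list of 77, of which 53 were found. In nic50 against control livers 2 of 48 tested (4.17%) were higher and 0 lower, where 3.69% of all genes were higher and 1.02% lower. In nic10 against control livers 0 were higher and 1 (2.08%) lower, where 0.331% of all genes were lower. UGDH, which makes the UDP-glucuronic acid used for glucuronidation, had 20.3, 16 and 16.6 FPKM in control livers, 29.7, 16.6 and 17.7 in nic10 and 33.4, 33.1 and 34.7 in nic50 livers. All nic50 livers exceeded all controls, with a difference of 0.90 (SE 0.22, adjusted p = 0.0448) that held in 4 of 9 fits leaving out a library and was lost without any nic50 liver or control liver 2 or 3 (adjusted p = 0.134 to 0.187). That call was also lost after rescaling by trimmed means (0.72, adjusted p = 0.163), after quantile normalization (0.77, adjusted p = 0.0713) and with no filter (adjusted p = 0.0717). With a term for the 23-gene set, which leaves control liver 1 alone as the control, the UGDH difference was 0.71. For UGDH, nic10 liver 1 was nearer to the nic50 livers than to the other nic10 livers (0.22 for nic10). TXNRD1, a cytosolic thioredoxin reductase, averaged 3.78 ± 1.48 FPKM in nic50 and 1.37 ± 0.521 in control livers, a difference of 0.99 (SE 0.25, adjusted p = 0.0477) that held in 2 of 9 such fits, those without nic10 liver 1 or 3 (adjusted p = 0.0389 to 0.211 over all 9). It was also lost after rescaling by trimmed means, with a pseudocount of 0.1, with no filter and in a fit of only the groups compared (adjusted p = 0.0506 to 0.0984). NR0B2, the repressor known as SHP that bile acids induce, had 34.4, 70.8 and 81.4 FPKM in control livers, 8.17, 20.9 and 13.3 in nic10 and 26.1, 18.2 and 22.2 in nic50 livers. Every exposed liver lay under every control, with differences of -2.06 (SE 0.36, adjusted p = 0.0263) for nic10 and -1.37 (SE 0.36, adjusted p = 0.0566) for nic50. The nic10 call held in 3 of 9 such fits, those without nic10 liver 1 or 2 or control liver 1 (adjusted p = 0.00716 to 0.123 over all 9). With a term for the 23-gene set, again against control liver 1 alone, the NR0B2 differences were -1.31 for nic10 and -0.62 for nic50. The nic10 call was also lost in a fit of only the groups compared (adjusted p = 0.113) and with no filter (0.0831), while the nic50 difference passed in a fit of only the groups compared (0.0281), after rescaling by trimmed means (0.0321) and after quantile normalization (0.0483). With alike livers averaged the NR0B2 difference for nic10 did not pass (-1.88, adjusted p = 0.318). The UGDH and TXNRD1 differences for nic50 were then 0.85 and 1.05. They rest on a lone nic50 value, which cannot decide whether those calls hold. AHR, the receptor for dioxin-like compounds, averaged 19.1 ± 4.77 in nic50 and 10.0 ± 2.56 in control livers, a difference of 0.87 (SE 0.27, adjusted p = 0.0981) that passed without nic10 liver 1 (adjusted p = 0.0435). Its target and repressor AHRR did not exceed 0.0675 FPKM in any liver, control or exposed. AHRR was not tested in liver and is too low there to show whether AHR targets responded. NR1I3, the nuclear receptor CAR, averaged 0.931 ± 0.235 in nic50 and 2.15 ± 0.719 in control livers, a difference of -0.69 (SE 0.27, adjusted p = 0.180), and NR1I2 is not analysed here. POR (LOC102444175), which passes electrons to microsomal cytochrome P450s, averaged 75.4 ± 7.67 in nic50 and 73.5 ± 10.6 in control livers, with a 95% interval of -0.44 to 0.52 for the difference. In gut 0 of 44 tested passed at either dose against control, 10 (22.7%, against 14.9% of all genes) with an unadjusted p under 0.05 for nic10 and 3 (6.82%, against 6.5%) for nic50.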

How the data were processed

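The authors deposited 1 table of FPKM values for 24880 features in 18 libraries, per the file headers. Per the labels' protocols, total RNA was extracted with TRIzol and libraries came from a VAHTS Universal V6 kit. CASAVA is named in the submitters' processing notes, and no source used here gives the aligner, counter, annotation or build. Depth is unknown: low values of a pair of libraries shared their commonest ratio in 0.258% to 1.58% of genes, too few to recover whole reads, so no counting intervals are given. Paralogs may share reads, and their values are uncertain. Identifiers made of a number were named through RefSeq assembly ASM4963464v1.

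The analysis ran limma 3.58.1 (R 4.3.3) on log2(FPKM + 1), with a mean trend in the spread. This scale understates changes of low genes. A gene entered a fit when 3 or more of its libraries reached 1 FPKM. Tests were two-sided, with Benjamini-Hochberg adjustment over all of them and a threshold of 0.05. Each tissue was fitted with its 3 dose groups, and tissues were compared in a fit of all 18 libraries. The groups of a fit shared the same estimate of spread for each gene, so a comparison also carried the spread of groups outside it. A 95% interval is limma's. The fit was tested on simulated data. Named genes were members past the threshold or, where fewer than 5 passed, the 5 with the smallest p, the 8 most abundant members of each tissue, the 10 highest and 10 lowest passing tissue differences, the 3 smallest p of each interaction, EPHX1, and partner genes past the threshold or named in the list. Other members, CYP17A1 and the other genes without a symbol were named after their values were seen. The members and lists were chosen with earlier results of these data known. Alternatives were a pseudocount of 0.1, no filter, trimmed-mean rescaling, quantile normalization, a replicate block, only the groups compared, liver libraries of a group that correlate at 0.99 or more averaged, a term for the 23-gene set, and leaving out each library. A fit without nic10 guts 1 and 3 was added after seeing the data.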

Additional observations from a re-analysis of the deposited data

How the results depend on the processing

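No member passed in gut under any alternative run. Of the genes named through RefSeq, CYP24A1 and CYP26B1 (LOC102450173) each passed in 1 of 9 fits leaving out a library, in nic50 against nic10 guts. With all libraries their limma differences there were -1.42 (adjusted p = 0.154) and -0.83 (adjusted p = 0.351). Between the control tissues 21 of 25 members passed, 19 to 21 when 1 library was left out. In nic50 against control livers the count of 1 became 3 in a fit of only the groups compared (AKR1D1, ALDH8A1 and GSTK1). It became 0 with alike livers averaged, where the lone nic50 value was assumed to vary like the others. With a term for the 23-gene set the control side was control liver 1 alone, so no count is given for it. In nic50 against nic10 livers the count of 1 became 2 with that term (AKR1D1 and EPHX1). The term left the EPHX1 difference at 0.68, so its call turned on the estimated spread (adjusted p by limma 0.0413, and 0.0414 without control liver 1). Averaging leaves 3 residual degrees of freedom in place of 6, and the cause of the remaining shifts was not tested. Leaving out 1 library gave 0 to 3 in nic10 against control livers, with 3 (AKR1D1, ALDH2 and ALDH4A1) without control liver 1. It gave 0 to 2 in nic50 against control livers, 1 to 2 in nic50 against nic10 livers, 0 to 0 in each gut comparison and in the nic50 interaction, and 0 to 1 in the nic10 interaction. The share of all genes passing in each of these alternative fits is not given here, so these member counts lack that background.

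Correlations of deviations between same-numbered libraries were -0.189 to 0.247 in liver, where 5 of 9 pairs were over 0.1 (all 3 of replicate 3), against 5 of 18 pairs with different numbers. In gut they were -0.288 to 0.254, with 2 of 9 over 0.1 against 4 of 18. Between liver and gut of the same group they were -0.217 to 0.257, with 2 of 9 over 0.1 against 3 of 18. Not every same-numbered pair was over 0.1, so the numbers were not taken as pairs. The labels give no shared source of liver and gut libraries, and the main fits across tissues treated them as independent. A replicate block left the member counts of the exposure comparisons as they were (0, 1 and 1 in liver, 0 in gut and in the interactions) and gave 19 between tissues, where ALDH5A1 (0.74, adjusted p = 0.0791) and GSTCD (-0.41, 0.115) did not pass. With the block, EPHX3 between tissues (-0.61, adjusted p = 0.0505) and TXNRD1 in nic50 against control livers (0.99, 0.0600) did not pass, and AHR in that liver comparison did (0.87, 0.0267).

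Of 1576 values of single genes under alternatives, 1482 kept their direction and side of the threshold, 69 lost the threshold, 20 gained it and 5 turned. ALDH2 in nic50 against control livers was -0.0129 with the gene-set term, a comparison with control liver 1 alone. GSTCD between control tissues was 0.0298 after trimmed-mean rescaling and 0.19 after quantile normalization. EPHX1 in nic10 against control guts was 0.0260 with nic10 gut 2 alone, a library assumed there to vary like the other groups. UGDH in nic10 against control livers was -0.0340 without nic10 liver 1 and ran from there to 0.366 over the fits that left out a library.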
